A study of Caenorhabditis elegans with 2 samples.

Results

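The hir-1 locus of Caenorhabditis elegans was examined for binding of ELT-1, by chromatin immunoprecipitation and sequencing (ChIP-seq), over 14 kb of chromosome V. The members are the regions whose summit, the point of highest signal, lay from chrV:5517001 to 5531001 of the ce11 assembly, which takes in hir-1 and 5 kb upstream. Of 30000 regions ranked from both replicates together, 5 lay in this interval, as did 6 of the 30000 of replicate 1 and 7 of the 30000 of replicate 2. Of the regions that passed the authors' reproducibility threshold, called peaks below and ranked above 352 in the pooled list, 1 lay there. The locus was chosen by the signal of that peak, known from these same data to be among the strongest of the genome. Signals of the members are therefore given as a description, with no test. All samples form 1 group of 2 biological replicates: whole L2 larvae of both sexes, pooled, of strain OP354. The strain carries the allele unc-119(tm4063) on chromosome III and the transgene wgIs354, which encodes ELT-1 fused to eGFP. The promoter that drives the fusion is not given in the sources used here, and no untagged group was analysed. Because whole larvae were used, the cells in which ELT-1 occupied the locus are not known.

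ELT-1 is a GATA factor, a zinc finger protein that binds the DNA core GATA, and worm embryos without it fail to make epidermis. The gene hir-1 (hypoxia inhibited receptor tyrosine kinase) encodes a receptor tyrosine kinase, a membrane protein that passes an outside signal into the cell by phosphorylating tyrosines. In the worm, HIR-1 is known for responses to low oxygen and to injury of the extracellular matrix that do not need the hypoxia factor HIF-1. Much of the worm's outer matrix is the cuticle, which the epidermis secretes.

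The GATA site under the peak is shown first, because the rest of the locus holds the same 6 letters without a peak. Both strands were searched for the 4 spellings of the GATA factor motif WGATAR. The interval held 32 such sites, namely 7 AGATAA, 3 AGATAG, 14 TGATAA and 8 TGATAG. Each line gives 1 of the 7 AGATAA sites, read 5′ to 3′ along the strand that carries it, with the 6 letters in capitals and 12 bases on each side, in RefSeq's sequence of the ce11 assembly.
Under the peak, chrV:5523441-5523470, plus strand: gcatttcgatcaAGATAAactgggtgaatt
In mms-19, chrV:5517605-5517634, minus strand: acataacaaattAGATAActgatttctgta
In mms-19, chrV:5518822-5518851, minus strand: ttgctcgaatgcAGATAAagaatttggtgc
Upstream of hir-1, chrV:5521859-5521888, plus strand: ttcacaacttttAGATAAagatctaggtta
In the long first exon of hir-1, chrV:5522311-5522340, minus strand: tttcttaataatAGATAActgtatatttgc
In an intron of hir-1, chrV:5524730-5524759, minus strand: taaaacagtttcAGATAAtttttttcaaaa
In a late exon of hir-1, chrV:5529841-5529870, minus strand: gcgtccaatttcAGATAActgtagtcttca

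Of these 7 AGATAA sites, 1 lay in a region of the pooled list, and that region was the peak. Replicate 1 had a region over 3 of the 7 and replicate 2 over 2. Over the genome, 8.56% of the 63941 AGATAA sites lay in a pooled region and 0.336% in a peak. Of all 32 WGATAR sites of the interval, 4 (12.5%) lay in a pooled region and 2 in the peak, against 8.20% and 0.197% of the genome's 238156 sites. The 2 sites in the peak are among the 4. Since the interval was chosen for its peak, a share in a peak above the genome's was set by that choice. The same holds for AGATAA, and nothing is read from these shares. The interval was not rich in the motif, at 2.29 WGATAR sites per kb beside 2.38 over the genome. The 6 letters under the peak thus occurred 6 more times in the interval outside any peak.

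The peak spanned chrV:5523291-5523554 with its summit at 5523423. The signal of each region, as deposited, has its own scale in each list, so it is given with its rank and divided by the median signal of all regions in the same list. Replicate 1 had a signal of 49.5, which ranked 16 and stood 10.65-fold over its median region. Replicate 2 had a signal of 34.0, which ranked 17 and stood 6.58-fold over its median region. Both replicates thus placed the region among their first 20, and the fold was higher in replicate 1. The mean was 8.61 ± 2.88-fold (SD, n = 2), and the SD includes any difference in scale between the lists. In the pooled list the signal was 84.9, which ranked 14 at 10.9-fold. Peaks make up 1.17% of the pooled list, and since the locus was chosen by its peak, nothing is read from that share. The pooled signal was 3.45-fold that of the weakest peak, which had 24.595, while the first region under the threshold had 24.583. Directly above hir-1 in the pooled order were regions nearest to W04D12.1 at 89.1 and T23E7.6 at 89.2, and directly below were mdl-1 at 84.8 and dmd-7 at 79.7. With so small a gap to the next peak, the exact place in the order carries little information.

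Across the 332 peaks that had a summit within 100 bp in both replicates, 273 had the higher fold in replicate 1. The ratio of replicate 1 to replicate 2 was 1.62 at hir-1, beside a median of 1.54 and quartiles of 1.14 and 2.15. The difference between the replicates at hir-1 was thus close to that of the typical peak. Of these 332 peaks, 16 had a mean fold as high as hir-1 or higher, hir-1 itself included.

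**Figure D1:**
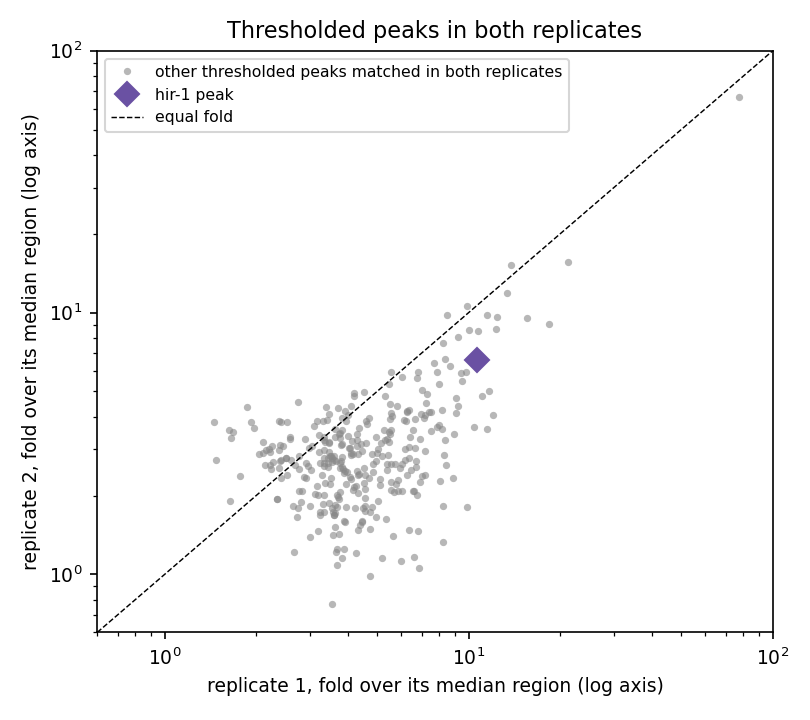
Thresholded peaks with a summit in both replicates (332 points), with the fold over the median region in replicate 1 on the horizontal log axis and in replicate 2 on the vertical log axis. The hir-1 peak (diamond) lay at 10.65 and 6.58, below the line of equal fold, as did most other peaks.

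The peak lay between alternative starts of hir-1 (WBGene00016059, chrV:5522139-5530746, plus strand). Ensembl gives 3 transcripts of the gene. The transcript C24G6.2a.2 starts at 5522139, and its first exon of 1738 bp runs without a break to 5523876. The summit lay at +1284 bp from this start, inside that exon and within the 1615 bp that are annotated as its 5′ UTR. The transcript C24G6.2a.1 starts at 5523727 with a 5′ UTR of 27 bp, and the summit lay at -304 bp from it. The model C24G6.2b, which has no annotated start codon or 5′ UTR, starts at 5523754, the first base of the start codon of the other models. The summit lay at -331 bp from it. The peak thus lay upstream of the shared start codon of both C24G6.2a transcripts. RefSeq holds C24G6.2a.1 and C24G6.2b but no model that starts at 5522139, and under RefSeq the peak lay outside and upstream of the gene. Whether a summit counts as genic or as promoter therefore depends on the annotation, while the nearest start is the same in both.

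Such a place was uncommon among peaks. Of the peaks, 26 (7.41%) lay inside a transcript and within 1000 bp upstream of another start of the same gene, beside 5.27% of the pooled regions under the threshold. Of the peaks, 20 (5.70%) had their summit in an annotated 5′ UTR, beside 2.36% of those regions. The hir-1 peak met both conditions, as did 10 peaks in all (2.85%), beside 0.745% of the regions under the threshold. These shares were looked up after the place of the hir-1 peak was known, and no test was made.

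The summit of the pooled list and that of replicate 1 lay at the same base, 30 bp from the AGATAA site at 5523453 to 5523458. The summit of replicate 2 lay 24 bp further downstream, at 5523447 and 6 bp from the site. Over the 332 matched peaks the median distance between the replicates' summits was 25 bp, so the shift at hir-1 was of the usual size. A further site, TGATAA on the minus strand at 5523536 to 5523541, lay within the region and 113 bp from the pooled summit. Within 50 bp of the summit, WGATAR occurred in 20.9% of all pooled regions and in 53.8% of peaks. AGATAA occurred there in 6.94% of pooled regions and in 33.6% of peaks, 118 in number, the hir-1 peak among them. After the 6 letters, hir-1 had an A, as did 37 of those 118 peaks (31.4%). As many peaks had a G (31.4%), which follows 13.9% of the AGATAA sites of the genome, while A follows 41.4%. The form at hir-1 was thus a common one in peaks, and the commonest one in the genome.

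**Figure D2:**
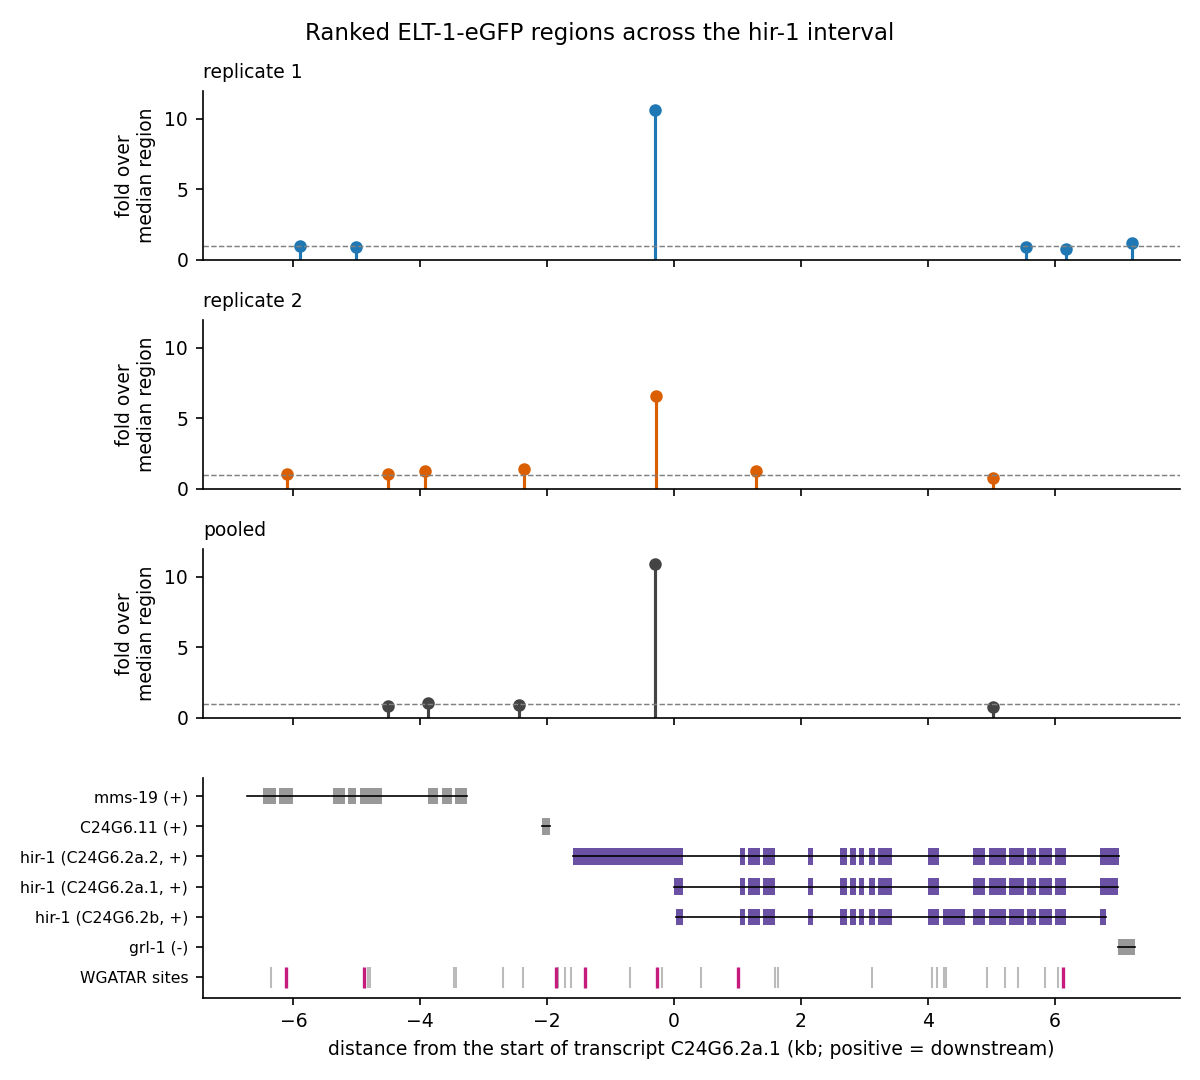
Regions of the interval in replicate 1, replicate 2 and the pooled list, placed by their summit's distance in kb from the start of C24G6.2a.1, with the fold over the median region of each list on the vertical axes (dashed line at 1). Below are the annotated transcripts (boxes are exons, clipped at the ends of the interval) and the 32 WGATAR sites, with the 7 AGATAA sites in pink. The piRNA gene 21ur-12866, inside hir-1, is not drawn. In all 3 lists 1 region stood at 6.58-fold or more, just upstream of the start of C24G6.2a.1, and no other region exceeded 1.42-fold.

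Apart from the peak, the interval held pooled signal near the level of the median region. The weaker regions of replicate 1 ran from 0.750 to 1.16-fold, with a median of 0.934. Those of replicate 2 ran from 0.790 to 1.42-fold, with a median of 1.18. The other 4 pooled regions had signals of 6.30 to 8.30 and ranks of 12291 to 26021, or 0.806 to 1.06-fold over the median region. One lay in an intron of mms-19, the gene upstream of hir-1, with its summit at 5519217 and 0.833-fold. Another lay in exon 15 of mms-19 at 5519846, with 1.06-fold. The third lay between the genes at 5521289, with 0.920-fold and at -850 bp from the start of C24G6.2a.2. The last lay within hir-1 at 5528754, in exon 13 of the C24G6.2a transcripts, with 0.806-fold. None of the 4 had WGATAR within 50 bp of its summit. Mms-19 is the worm relative of a conserved factor of iron-sulfur cluster assembly and DNA repair.

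Of the 4 weak pooled regions, all had a summit within 100 bp in replicate 2 and none had one in replicate 1. Of all pooled regions under the threshold, 44.5% had one in replicate 1, 44.4% in replicate 2 and 32.0% in replicate 2 without replicate 1. A summit in both replicates was found for 12.4% of them, so its absence at these 4 was the common case. The 5 weak regions of replicate 1 ranked 9764 to 27598, and none was found in the pooled list, where 44.5% of that replicate's weaker regions were. The 6 of replicate 2 ranked 4566 to 25639, and 4 were found there. The strongest of the 6, at 1.42-fold in replicate 2, lay at 5521363 between the genes and had a TGATAA site within 50 bp. It was the match of the pooled region at 5521289, whose own summit, 74 bp away, had no WGATAR within 50 bp. Another of the 6, at 5517623 in mms-19 with 1.08-fold, had AGATAA within 50 bp and was not matched in the other lists. The peak was thus the only region of the interval that had a summit in both replicates.

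Near the start of C24G6.2a.2 itself, the nearest ranked regions were those at 5521289 in the pooled list and at 5521363 in replicate 2, at -850 and -776 bp from it. In replicate 1 no region lay between 5518716 and the peak. At the 3′ end, hir-1 overlaps grl-1 by 22 bp on the opposite strand. The gene grl-1, which encodes a ground-like protein of the hedgehog-related family, had 1 region in replicate 1 within the interval, at 1.16-fold in its exon 5. The short noncoding gene C24G6.11 and the piRNA gene 21ur-12866, which lies on the minus strand inside hir-1, held no summit in any list. Just beyond the edges of the interval, the next pooled summits lay at 5514252 with 0.961-fold and at 5534355 with 1.29-fold, and the outermost pooled summits inside were those at 5519217 and 5528754.

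In the interval the signal of the peak was 10.2-fold that of the next region in the pooled list, 9.15-fold in replicate 1 and 4.62-fold in replicate 2 (6.89 ± 3.20-fold over both replicates, SD, n = 2). To compare it with other peaks, each peak's signal was divided by that of the strongest other region within 7 kb on either side. The median over the 349 peaks with such a neighbour was 2.18, with 2 peaks left without one, and hir-1 had the highest ratio, 10.2. Next in order were peaks nearest to nhr-17 at 9.92 and elt-1 at 9.24, and sesn-1 was 5th at 7.44. Within the list of replicate 1 the ratio at hir-1 was 11.1, the highest of 349 regions. Within that of replicate 2 it was 4.62, 9th of 350 regions. These regions are not the same set as the 349 pooled peaks, since not every peak had a summit in each replicate. The places in the 3 orders are therefore not directly comparable. This measure was chosen after the locus had been seen and rests on the signal that chose it, so the order is a description. The pooled list had 4 other regions within 7 kb of the hir-1 peak, beside a median of 7 over all peaks, and the nearest lay 2134 bp away, beside a median of 903 bp. The next peaks on chromosome V lay 96895 bp to the left and 706136 bp to the right. Standing without a second peak within 7 kb was common, and 241 peaks did so. In number of regions the interval was ordinary, since 41.5% of the 7159 windows of 14 kb along the genome held 5 or more pooled regions, and 4.06% held a peak.

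**Figure D3:**
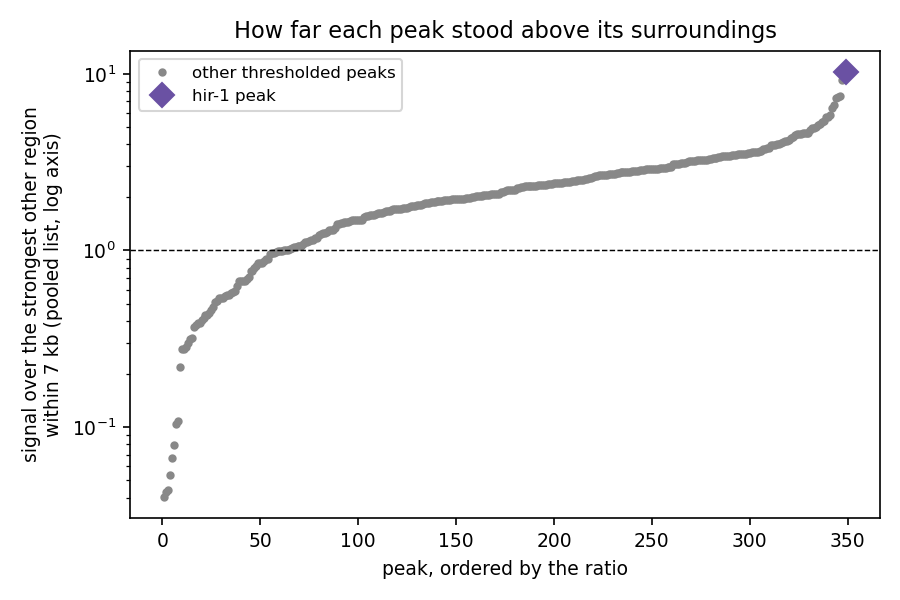
Ratio of each thresholded peak's pooled signal to that of the strongest other pooled region within 7 kb (vertical log axis), for the 349 peaks with such a region, ordered from the lowest ratio to the highest. The hir-1 peak (diamond) had the highest ratio, 10.2, against a median of 2.18.

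The genes most like hir-1 were sought among 420 other protein-coding genes with at least 1 peak in the gene or the 5 kb upstream. The strongest region of each was matched within 100 bp in both replicates. Some of these genes share a peak, and the 420 genes held 253 distinct strongest peaks. Likeness was the distance between the log2 folds of their strongest peak in replicates 1 and 2, so it rests on 2 values. The closest was sesn-1, which encodes a sestrin and whose peak was also among the 5 with the highest ratio to their neighbours, at 9.78-fold in replicate 1 and 5.92-fold in replicate 2 and a distance of 0.20. Its peak too lay within the gene but before another start, at -228 bp, and it had AGATAA within 50 bp. The next 3 genes, ZK546.19, ZK546.2 and cblc-1, share a single peak on chromosome II at 8.65-fold and 6.27-fold, with a distance of 0.31 and AGATAA within 50 bp. The 5th was F09A5.3 on chromosome X, at 9.50-fold and 5.48-fold and a distance of 0.31, whose summit lay in a 5′ UTR and had no WGATAR within 50 bp.

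Other receptor tyrosine kinase genes were set beside hir-1 as a description, since hir-1 was chosen by its signal. Of 21 names listed, 20 were in the annotation, and 2 of the 20 held a peak in the gene or 5 kb upstream, beside 2.23% of the 19973 protein-coding genes. The other gene was vab-1, which encodes the Eph receptor that acts in epidermal morphogenesis and axon guidance. Its peak on chromosome II, summit at 4573348, lay in an intron at +1348 bp from the start, at 3.95-fold in replicate 1 and 3.84-fold in replicate 2 (3.90 ± 0.073-fold, SD, n = 2). It held no WGATAR within 50 bp. The strongest regions of the remaining kinases reached at most 2.38-fold in either replicate. They included egl-15, the fibroblast growth factor receptor, at 1.30 and 2.03-fold in replicates 1 and 2, let-23, the epidermal growth factor receptor, at 1.05 and 1.29-fold, and daf-2, the insulin receptor, at 1.43-fold in the pooled list. Below vab-1 the replicates did not keep the same order, since ddr-1 was the highest in replicate 1 at 2.17-fold and ddr-2 in replicate 2 at 2.38-fold. The median over the list was 1.28-fold in the pooled list, beside 1.21 over all genes with a ranked region. The genes lin-18, kin-15 and kin-16 had no pooled region.

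**Figure D4:**
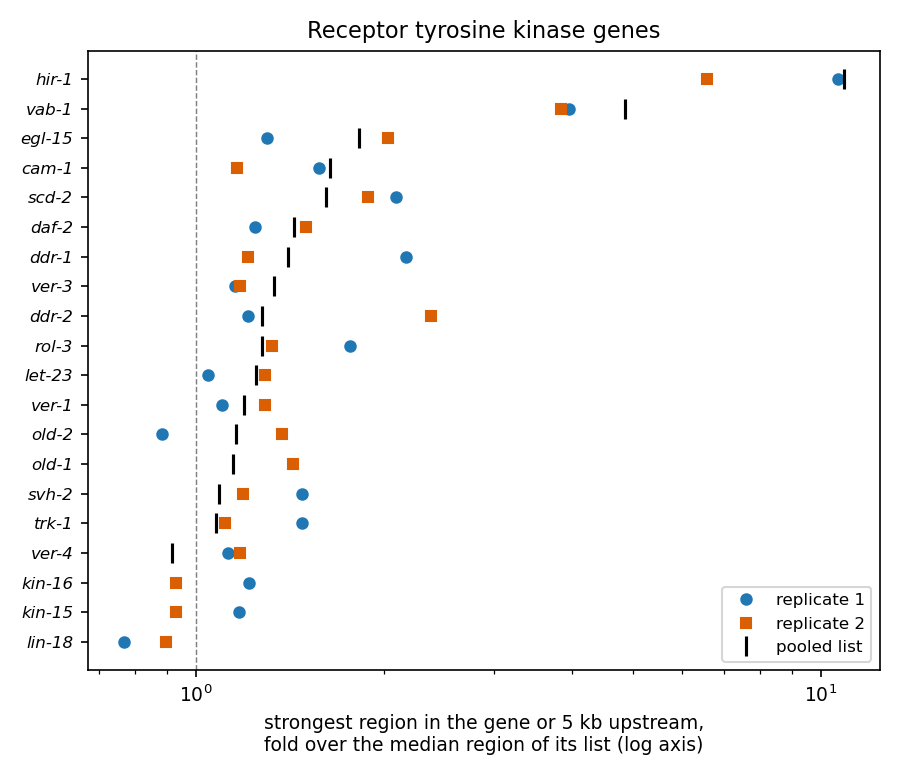
Strongest region in the gene or 5 kb upstream for 20 receptor tyrosine kinase genes, as the fold over the median region of its list (horizontal log axis, dashed line at 1), in replicate 1 (circles), replicate 2 (squares) and the pooled list (bars). Only hir-1 and vab-1 exceeded 2.38-fold in a replicate, and a missing symbol means that the list held no region there.

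Genes of the hypoxia and hydrogen sulfide response were likewise set beside hir-1 only as a description, since hir-1 was chosen by its signal. The list does not include hir-1, and it was chosen with earlier results of these data known. Of 12 genes, 2 held a peak, beside 2.23% of all protein-coding genes. The median pooled fold over all 12 was 1.76, beside 1.21 over all genes with a ranked region. The peak of sqrd-1, which encodes sulfide quinone oxidoreductase, had its summit at 14219826 on chromosome IV, at -45 bp from the start, and stood at 3.38-fold in the pooled list. It was matched in replicate 1 at 3.01-fold, but no summit of replicate 2 lay within 100 bp. The peak assigned to egl-9, the oxygen-sensing prolyl hydroxylase that marks HIF-1, lay at 10466781 on chromosome V, at -1736 bp from the start, at 3.23-fold in the pooled list and 3.79-fold in replicate 1. It too was not matched in replicate 2. Neither held WGATAR within 50 bp. The gene hif-1 had no peak, with 2.46-fold in replicate 1 and 2.65-fold in replicate 2. Counting instead as many top regions of each replicate as there are peaks, 2 genes had one in replicate 1, egl-9 and nhr-57, beside 2.29% of all genes. In replicate 2 there were also 2, hif-1 and cysl-1, beside 2.49% of all genes. The genes differed between the replicates, but the share of all genes with such a region in both was not counted. Nothing is therefore read from that difference.

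Genes of the cuticle furrows and of the osmotic and damage responses, which HIR-1's matrix role touches on, held peaks in 5 of 27 cases, beside 2.23% of all protein-coding genes. Several of these genes were already known from these data to hold peaks when the list was made, so the count is not independent evidence. The median pooled fold over the 27 was 1.34, beside 1.21 over all genes with a ranked region. The strongest was at ptr-23, a patched-related gene of the osmotic response, which had 11.5-fold in replicate 1 and 3.60-fold in replicate 2 (7.56 ± 5.60-fold, SD, n = 2). It had AGATAA within 50 bp and ranked 25 in the pooled list. The matrix gene noah-1 had 8.21 and 1.83-fold in replicates 1 and 2. The furrow collagen gene dpy-7 had 6.795 and 1.47-fold. The furrow collagen genes dpy-2 and dpy-10 lie head to head and share 1 peak at 4.56 and 1.96-fold. With as many top regions of replicate 1 as there are peaks, 6 of the 27 genes had one, beside 2.29% of all genes. With those of replicate 2, 1 of the 27 had one, ptr-23, beside 2.49% of all genes, so in that replicate the list was near the background.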

How the data were processed

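Regions of ELT-1-eGFP ChIP-seq from L2 larvae were used as deposited, in 4 lists on ce11. Per the listing the authors deposited, regions were ranked from each replicate's alignments with a control, and again from both replicates' alignments combined. The irreproducible discovery rate, a measure of rank stability across replicates, was used to set the thresholded list. Not every peak in it was matched, since 332 of the 351 had a summit within 100 bp in both replicates. The signal of each region is the authors' value, on the scale of its own list. Aligner, caller, threshold value and control strain were not given in the sources used here, and read depth is unknown. Nearly every region has 1 fixed width per list, so widths carry no information. The lists on ce10 and the score columns were not used.

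With Python 3.11.15 and pandas 2.3.3, regions were ranked by signal and divided by the median of their list. A region was matched between lists by the nearest summit within 100 bp. Transcripts came from Ensembl release 115 on WBcel235, the assembly of ce11, and sequence from RefSeq's copy of it. Coordinates are 1-based. Of 21 receptor tyrosine kinase names, ver-2 was not matched in the annotation. Functions were tested on simulated data. Named genes are hir-1, genes overlapping the interval, up to 6 members per list with a peak, and the 5 genes most like hir-1, beside genes named for their place in an order after values were seen. The members and lists were chosen with earlier results of these data known. Nothing was tested between groups, since there is 1 group of 2 replicates.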

Additional observations from a re-analysis of the deposited data

How the results depend on the processing

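Of 29 alternatives, 3 moved a count by more than 1.5 times, and these are given below. The fold of the hir-1 peak ran from 6.58 without replicate 1 to 10.65 without replicate 2, which with 2 replicates lie within 1 SD of their mean by construction and say nothing of stability, and it was 10.9 in the pooled list and 6.83 over the upper quartile of each list. Within 25 bp of the pooled summit the peak held 0 WGATAR sites, since the site starts 30 bp away, and within 25 bp of the summit of replicate 2, an alternative added after the data were seen, it was present. With the promoter window (1000 bp upstream to 200 bp downstream of a start), 1 receptor tyrosine kinase, hir-1, held a peak in place of 2. With 1 replicate at a time, the cuticle, osmotic and damage list had from 1 to 6 members with a region among as many top regions as there are peaks, and the cause was not tested. No paired analysis was possible because the study has 1 group. With 2 replicates and unknown depth, the error of each value is known only roughly.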

Other observations

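The bases around the hir-1 summit were looked at after the sequence was seen. Within 50 bp of the pooled summit the commoner base class of a strand (purine or pyrimidine) made up 66.3% of bases, beside a median of 56.4% over peaks, and 13.1% of peaks were at or above it. The same window held 6 matches of GAGA, counted on both strands with overlaps, beside a median of 2 over peaks and 1 over all pooled regions. Of peaks, 5.13% held 6 or more, and of all pooled regions 1.12%. At least 1 match occurred in 80.6% of peaks and 56.7% of pooled regions. The GC content of the window was 40.6%, beside a median of 42.6% over peaks. These matches describe the letters of the window, and no factor that binds them was measured.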
